A study of Mus musculus with 6 samples.

Results

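The complement system genes described here are 30 genes for components, regulators and receptors of complement, chosen by symbol out of 47069 genes in the count matrix of lungs taken at ZT10, 10 hours after lights on. All 30 were found. RNA from the lungs of 3 WT mice (WT4 to WT6) and 3 Zpbp2 KO mice (KO4 to KO6) was sequenced, with 1 library per mouse. WT mice were C57BL/6J. KO mice are also labelled C57BL/6J and belong to the B6.129S7-Zpbp2tmZuk/Mmjax line, in which the first exons of Zpbp2, up to exon 3, are deleted in the germline and so in every cell. Both groups were adult, lived in the same colony under a 12h:12h light/dark cycle and received no treatment. The sources used here do not state the exact age or whether KO and WT mice were littermates. The comparison addresses how the lung transcriptome of KO mice differed from that of WT mice at ZT10.

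Complement is a cascade of plasma and tissue proteins that marks microbes, dying cells and debris for clearance. The classical pathway starts when C1q, built from A, B and C chains, binds its target and activates the proteases C1r and C1s. The lectin pathway starts from ficolins and collectins with the MASP proteases. Both pathways, and the alternative pathway with factor B and properdin, lead to cleavage of C3 and C5, release of the peptides that C3ar1 and C5ar1 sense, and assembly of the membrane attack complex, while membrane and fluid-phase regulators protect host cells. Most complement proteins of plasma are made in the liver, whereas C1q is made mainly by macrophages and related myeloid cells, and in the lung the surfactant-lined airspaces also contain locally made components.

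C1qb, C1qc and C1qa lie side by side on the minus strand of chromosome 4 (GRCm38, GENCODE release M21). C1qb spans chr4:136880129-136886187, C1qc spans chr4:136889804-136893065 and C1qa spans chr4:136895917-136898803. Together they cover 18675 bp, with gaps of 3616 bp between C1qb and C1qc and 2851 bp between C1qc and C1qa. Fcna, which encodes ficolin A, a lectin of plasma and macrophages, lies on the minus strand of chromosome 2 at chr2:25624666-25628030. The bases just upstream of the start of C1qb, C1qc and Fcna are shown because the C1q genes moved together between the groups and Fcna was the only other initiator whose groups did not overlap. They are RefSeq sequences (GRCm38.p6) read on the minus strand, 5′ to 3′, restricted to bases before the annotated starts of both RefSeq and GENCODE. C1qb is chr4:136886201-136886450, C1qc is chr4:136893066-136893164 and Fcna is chr2:25628031-25628224. Capitals mark GAGGAA, or TTCCTC where the match is on the other strand, the short form of the motif bound by ETS factors such as PU.1 of myeloid cells.
C1qb: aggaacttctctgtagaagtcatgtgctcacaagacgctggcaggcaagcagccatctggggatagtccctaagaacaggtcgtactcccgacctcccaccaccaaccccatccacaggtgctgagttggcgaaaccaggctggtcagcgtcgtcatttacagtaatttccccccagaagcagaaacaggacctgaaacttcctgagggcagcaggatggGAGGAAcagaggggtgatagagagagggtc
C1qc: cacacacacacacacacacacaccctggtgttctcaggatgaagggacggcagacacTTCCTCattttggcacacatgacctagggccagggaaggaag
Fcna: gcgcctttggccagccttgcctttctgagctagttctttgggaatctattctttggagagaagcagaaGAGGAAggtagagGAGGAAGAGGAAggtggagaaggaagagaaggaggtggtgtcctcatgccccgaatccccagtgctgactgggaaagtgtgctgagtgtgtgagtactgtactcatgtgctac
In C1qb the match began 30 bases before the RefSeq start. In C1qc it lay 193 bases before the RefSeq start on the other strand, and in Fcna 3 matches began 182, 169 and 163 bases before it. For C1qc and Fcna the RefSeq start lies downstream of the last base shown, because the stretch stops at the GENCODE start. RefSeq promoter windows of 250 bases were matched for 20 of the 30 genes, with 22 windows in all, and C1qa was not among them. GAGGAA occurred on either strand in 6 of these 22 windows and in 23.3% of all 32851 windows. An IRF motif, GAAANNGAA, occurred in 2 windows, against 7.13% of all windows, and a STAT motif, TTCNNNGAA, occurred in 2, against 7.02%. An AP-1 motif, TGACTCA, was found in 2 windows, against 4.46%, and an NF-kappaB motif, GGGANTTTC, was found in none, against 0.941%. These letters are short and common and are given as a description of the sequence.

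Counts on genes totalled 20992452 to 31639503 in WT mice and 19981428 to 46796908 in KO mice, and at these depths 3 counts equal 0.0629 to 0.148 CPM, the counts divided by TMM-scaled library sizes. Zpbp2 itself drew 1 count in WT4, 2 in WT5, 2 in WT6 and 0 in each KO mouse, so its loss could not be measured in lung RNA. The first principal component of log2 CPM, with 43.5% of the variance, separated the KO from the WT mice. KO5, the deepest library, lay farthest out on it. Markers of B cells stood highest in KO5, with a summed level of 1096 CPM against 259 to 312 CPM in the other KO mice and 139 to 154 CPM in WT mice. For members whose rise in KO mice rested largely on KO5, and for B and T cell markers, values are therefore given with and without it. Markers of lung epithelium summed to 53581 to 63355 CPM in WT mice and 41096 to 54092 CPM in KO mice, so the label of lung was met. Sex-linked genes, chiefly Xist, summed to 715 to 752 CPM in WT mice and 821 to 994 CPM in KO mice. Only 1 of them was tested, with a log2 fold change of 0.32, and it was not called.

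Levels of the 30 genes ranged over orders of magnitude. Per kb of annotated exon and averaged over the 6 mice, C3, the central component that all 3 pathways cleave, was highest at 198 CPM per kb. Serping1, the C1 inhibitor, followed at 158 CPM per kb, then C7, a component of the membrane attack complex, at 107 CPM per kb. The ranges over mice of C3 (148 to 254 CPM per kb) and Serping1 (147 to 176 CPM per kb) overlapped, and so did those of C4b at 69.2 CPM per kb and Clu at 67.5 CPM per kb. C1qa stood at 35.2, C1qb at 33.8 and C1qc at 16.7 CPM per kb. The lowest levels belonged to lectin pathway genes, Masp1 at 0.262, Masp2 at 0.0956 and Fcnb at 0.0148 CPM per kb. In the plot of levels per kb the widest gap between one mouse and the rest is that of KO5 in Fcna.

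**Figure D1:**
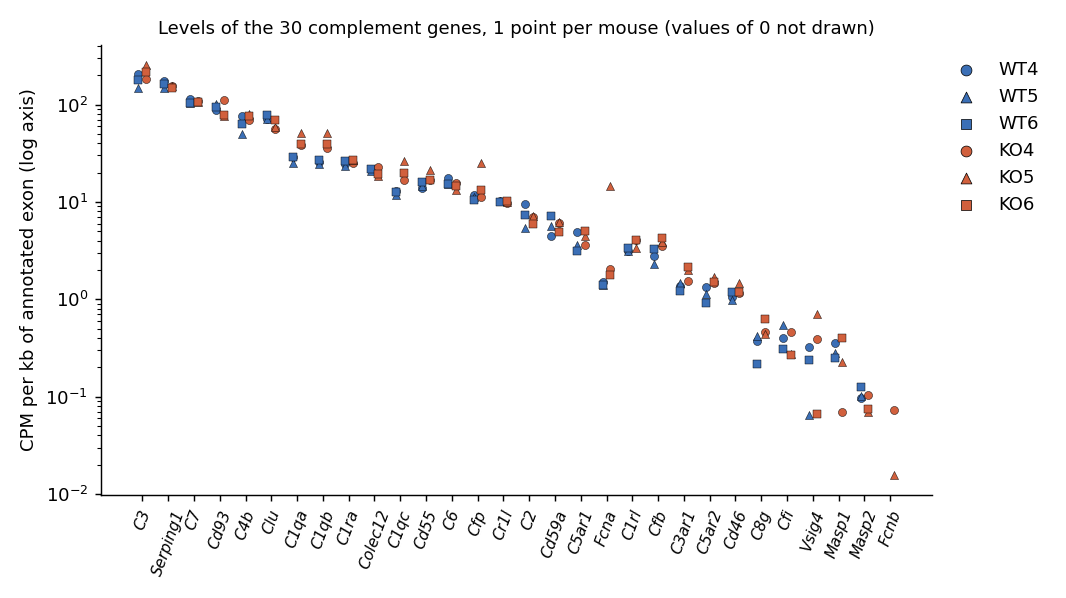
Level of each of the 30 complement genes (CPM per kb of annotated exon, log axis), 1 point per mouse, with genes ordered by their mean over the 6 mice and values of 0 not drawn. C3, Serping1 and C7 lie above 100 CPM per kb on average, Fcnb lies at 0.0148 CPM per kb, and KO5 stands apart in Fcna.

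Of the 30 genes, 28 had enough counts to be tested. Masp2, a protease of the lectin pathway, had 8, 7 and 13 counts in WT mice and 7, 11 and 5 counts in KO mice. Fcnb, the ficolin of neutrophils and their precursors, had 0 counts in each WT mouse and 2, 1 and 0 counts in KO mice. Neither was tested. Among the 28, C1qa, C1qb and C1qc were higher in KO mice at an adjusted p-value of at most 0.05 (edgeR quasi-likelihood test, Benjamini-Hochberg over 17037 genes), which is 10.7% of the members, while 3.72% of all genes tested were called higher. None was called lower, against 2.67% of all genes. At an unadjusted p under 0.05 edgeR counted 1 lower member, Clu, and neither DESeq2 nor edgeR's exact test called any lower. No member passed the fold rule of the study, an absolute log2 fold change of at least 1.5 with an adjusted p-value of at most 0.05, which 0.640% of all genes passed. At an unadjusted p under 0.05, 8 members were higher, beside 2375 of the 17037 genes. The log2 fold change was above 0 for 18 members and below 0 for 10, with a median of 0.25 beside 0.00 for all genes tested, and without KO5 the median of the members was 0.12.

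**Figure D2:**
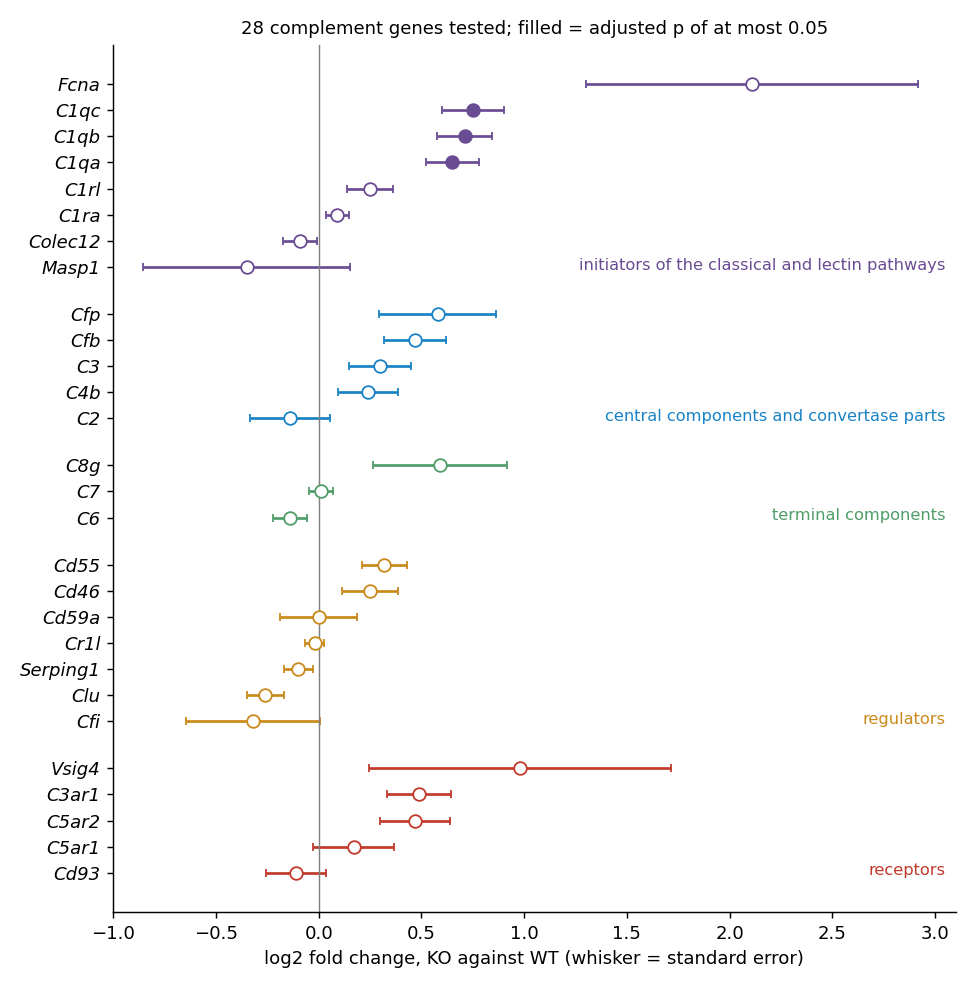
Log2 fold change of KO against WT mice for the 28 tested complement genes, grouped by role (points are edgeR estimates, whiskers are standard errors, filled points have an adjusted p-value of at most 0.05). The 3 filled points are C1qa, C1qb and C1qc, between 0.65 and 0.75, and Fcna has the largest estimate and the widest whisker.

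The 3 chain genes of C1q rose together. C1qa, the gene of the A chain, was at 29.7, 25.9 and 30.1 CPM in WT4, WT5 and WT6 and at 39.5, 53.7 and 40.7 CPM in KO4, KO5 and KO6. Every KO mouse lay above every WT mouse, and KO5 was highest. The WT mice averaged 28.6 ± 2.35 CPM and the KO mice 44.6 ± 7.87 CPM (SD over 3 mice each), a log2 fold change of 0.65 (SE 0.129) or 1.57-fold with an edgeR adjusted p-value of 0.0361. C1qb, the gene of the B chain, was at 27.9, 26.4 and 29.5 CPM in WT mice and at 38.5, 55.6 and 42.6 CPM in KO mice. Its groups did not overlap either. Averages were 27.9 ± 1.55 CPM for WT and 45.6 ± 8.95 CPM for KO (SD over 3 mice each), a log2 fold change of 0.71 (SE 0.135) or 1.64-fold with an edgeR adjusted p-value of 0.0321. C1qc, the gene of the C chain, was at 25.1, 22.7 and 24.3 CPM in WT mice and at 32.6, 50.3 and 38.1 CPM in KO mice. The order of the KO mice was the same as for C1qb, with KO4 lowest and KO5 highest. Averages were 24.1 ± 1.23 CPM for WT and 40.3 ± 9.06 CPM for KO (SD over 3 mice each), a log2 fold change of 0.75 (SE 0.152) or 1.68-fold with an edgeR adjusted p-value of 0.0373.

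The counts behind these levels were large. They ran from 474 for C1qc in WT5 to 2652 for C1qb in KO5. C1qa took 33.5 to 35.9% of the counts of the 3 chains in any mouse, C1qb took 33.7 to 35.2% and C1qc took 29.0 to 31.5%. The chains thus kept nearly the same ratio to each other in all 6 mice, WT or KO. Their longest transcripts shared no run of bases longer than 15 bp. In bulk lung RNA, a higher level per cell and a larger number of cells that express a gene cannot be told apart, and this holds for each gene below.

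**Figure D3:**
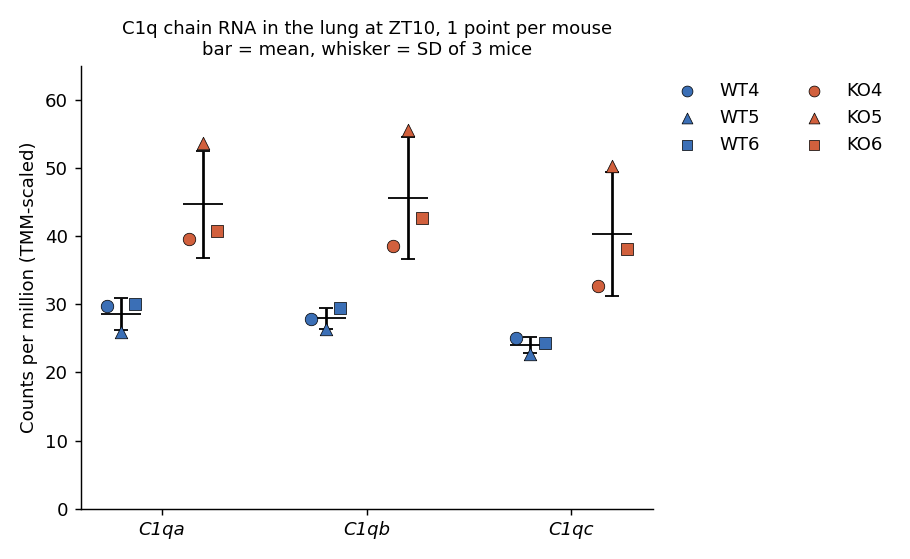
CPM of C1qa, C1qb and C1qc in each mouse (bar is the mean, whisker the SD of 3 mice, axis from 0). WT mice lie between 22.7 and 30.1 CPM and KO mice between 32.6 and 55.6 CPM, with KO5 highest for each chain.

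The C1q calls did not rest on KO5 alone. Without KO5 the log2 fold changes were 0.48 for C1qa, 0.53 for C1qb and 0.55 for C1qc, with edgeR adjusted p-values of 0.0230, 0.0156 and 0.0201. Without KO4 all 3 also passed. When WT4, WT5, WT6 or KO6 was left out, the log2 fold changes lay between 0.58 and 0.79, but the adjusted p-values rose to between 0.0711 and 0.154, and no chain gene was called. Few genes of any kind were called in these fits, with 1 gene in all without WT5. DESeq2 gave adjusted p-values of 0.000164 for C1qa, 4.89e-05 for C1qb and 0.000104 for C1qc.

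Other initiators of the classical and lectin pathways were not called. Fcna was at 2.09, 1.92 and 1.94 CPM in WT mice and at 2.79, 19.9 and 2.42 CPM in KO mice. All KO values lay above the WT values, but KO5, with 947 counts against 40 to 60 in the other mice, lay far above the rest. The log2 fold change was 2.11 (SE 0.809) with an edgeR adjusted p-value of 0.159, and it was 0.39 without KO5 (adjusted p = 0.253). C1ra, which encodes the C1r protease, had a log2 fold change of 0.09 with levels of 69.8 to 77.8 CPM in WT mice and 75.8 to 80.6 CPM in KO mice. Its copy C1rb shares a run of 757 bp with it, so the split of reads between them is uncertain. C1rl, a C1r-like protease, was at 9.34 to 10.2 CPM in WT mice and 10.2 to 12.3 CPM in KO mice (log2 fold change 0.25). Colec12, a membrane collectin and scavenger receptor, differed by a log2 fold change of -0.09, with 183 to 191 CPM in WT mice and 163 to 199 CPM in KO mice. Masp1, a lectin pathway protease, varied more among the KO mice (0.684 to 3.90 CPM) than among the WT mice (2.43 to 3.46 CPM), with a log2 fold change of -0.35 (SE 0.504). The median log2 fold change of these 5 genes was 0.09, and that of all 8 initiators tested, C1q chains included, was 0.45.

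None of the 5 central components was called, and their median log2 fold change was 0.30 (0.17 without KO5). C3 was at 1047, 762 and 923 CPM in WT mice and at 948, 1307 and 1113 CPM in KO mice. The groups overlapped, since KO4 lay below WT4. Averages were 911 ± 143 CPM for WT and 1123 ± 179.8 CPM for KO (SD over 3 mice each), a log2 fold change of 0.30 (SE 0.150) with an edgeR adjusted p-value of 0.258. Without KO5, the highest mouse, the log2 fold change of C3 was 0.17. Cfb, the factor B protease of the alternative pathway, was at 7.89, 6.47 and 9.22 CPM in WT mice and at 9.87, 10.9 and 12.0 CPM in KO mice. Its groups did not overlap, but the log2 fold change of 0.47 (SE 0.152) had an edgeR adjusted p-value of 0.111. Cfp, properdin, which stabilises the alternative pathway convertase, was at 18.0 to 20.3 CPM in WT mice and at 19.5, 43.7 and 22.9 CPM in KO4, KO5 and KO6. KO5 set its difference, as the log2 fold change of 0.58 became 0.13 without that mouse. C4b, which provides C4, had a log2 fold change of 0.24 with overlapping groups (285 to 437 CPM in WT mice and 391 to 452 CPM in KO mice), and its copy C4a shares a run of 433 bp with it. C2, the protease of the classical convertase and a neighbour of Cfb on chromosome 17, was at 20.7 to 36.7 CPM in WT mice and 23.1 to 27.6 CPM in KO mice, with a log2 fold change of -0.14 that became 0.08 without WT4.

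The terminal components did not pass the test. C7 was nearly equal in the groups, at 285 ± 16.8 CPM in WT and 288 ± 4.67 CPM in KO mice (SD, n = 3 each), and its log2 fold change of 0.01 had a standard error of 0.0583. C6, which joins the complex before C7, had a log2 fold change of -0.14, with 54.3 to 62.1 CPM in WT mice and 47.0 to 56.3 CPM in KO mice. C8g, the gamma chain of C8, was scarce, at 0.564, 0.623 and 0.323 CPM in WT mice and 0.684, 0.650 and 0.938 CPM in KO mice. The groups did not overlap, but the counts were only 10 to 31 per mouse and the log2 fold change of 0.59 (SE 0.325) had an edgeR adjusted p-value of 0.301.

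None of the 5 receptors was called, and their median log2 fold change was 0.47 (0.15 without KO5). C3ar1, the receptor of the C3 activation peptide, was at 5.88, 6.37 and 5.30 CPM in WT mice and 6.70, 8.58 and 9.28 CPM in KO mice. The groups did not overlap. The log2 fold change was 0.49 (SE 0.155) with an edgeR adjusted p-value of 0.107, and the adjusted p-value was 0.0484 when KO4 was left out. C5ar2, the second receptor of the C5 peptide, was at 4.75, 4.07 and 3.27 CPM in WT mice and 5.28, 6.02 and 5.33 CPM in KO mice, again without overlap (log2 fold change 0.47, edgeR adjusted p-value 0.143). Its neighbour on chromosome 7, C5ar1, the main signalling receptor of that peptide, overlapped between the groups, with 8.02 to 12.7 CPM in WT mice and 9.29 to 12.8 CPM in KO mice. Vsig4, a receptor of resident macrophages for C3 fragments, had 2 to 12 counts in every mouse but KO5, the deepest library, which had 50. In CPM, KO5 was at 1.05, KO4 at 0.587 and KO6 at 0.0988, against 0.0958 to 0.483 in WT mice. The log2 fold change of Vsig4, 0.98, became 0.09 without KO5. Cd93, a membrane glycoprotein of endothelial and myeloid cells first described as a C1q receptor, was abundant and did not pass the test, at 634 ± 42.0 CPM in WT and 589 ± 127 CPM in KO mice (SD, n = 3 each), with a log2 fold change of -0.11 (SE 0.144, edgeR adjusted p-value 0.688).

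Regulators as a group stood near 0, with a median log2 fold change of -0.02 over 7 genes and none called. Cr1l, the membrane regulator Crry of rodents, was among the most even of all members, at 105 ± 0.957 CPM in WT and 104 ± 2.85 CPM in KO mice (SD, n = 3 each), with a log2 fold change of -0.02 (SE 0.0443). Serping1 was at 347 to 408 CPM in WT mice and 342 to 363 CPM in KO mice (log2 fold change -0.10). Cd55, the decay-accelerating factor, was at 67.0, 70.3 and 77.6 CPM in WT mice and 81.2, 104 and 81.7 CPM in KO mice. It was the only regulator with all KO values above the WT values, and its log2 fold change of 0.32 (SE 0.110) had an edgeR adjusted p-value of 0.131. Without KO5 the log2 fold change of Cd55 was 0.18. The copy Cd55b shares a run of 232 bp with Cd55. Clu, clusterin, a secreted chaperone that binds the terminal complex, was at 245, 246 and 267 CPM in WT mice and 191, 204 and 239.7 CPM in KO mice. It was the only member with all KO values below the WT values, and its log2 fold change of -0.26 (SE 0.0905) had an edgeR adjusted p-value of 0.135. Cd46, a cofactor for C3 cleavage, was at 7.52 to 8.96 CPM in WT mice and 8.75 to 11.2 CPM in KO mice. Its log2 fold change was 0.25, and 0.12 without KO5. Cfi, the protease that performs this cleavage, had a log2 fold change of -0.32 at a level of 0.593 to 1.20 CPM. Cd59a, which blocks the attack complex, was at 8.05 to 13.1 CPM in WT mice and 8.99 to 11.2 CPM in KO mice, with a log2 fold change of -0.00, and its reads may be shared with Cd59b over a run of 104 bp.

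In all, 9 of the 28 tested members had every KO value above every WT value (32.1%), where 17.0% of all genes tested did, and 1 had every KO value below (3.57%), where 15.6% of all genes did. The 9 were C1qa, C1qb, C1qc, Fcna, Cfb, C8g, Cd55, C3ar1 and C5ar2. As the plot of these members by mouse shows, KO5 was the highest KO mouse in 6 of the 10 non-overlapping members but not in C8g, C3ar1, Cfb or Clu. The members are not independent of each other, and this count carries no test.

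**Figure D4:**
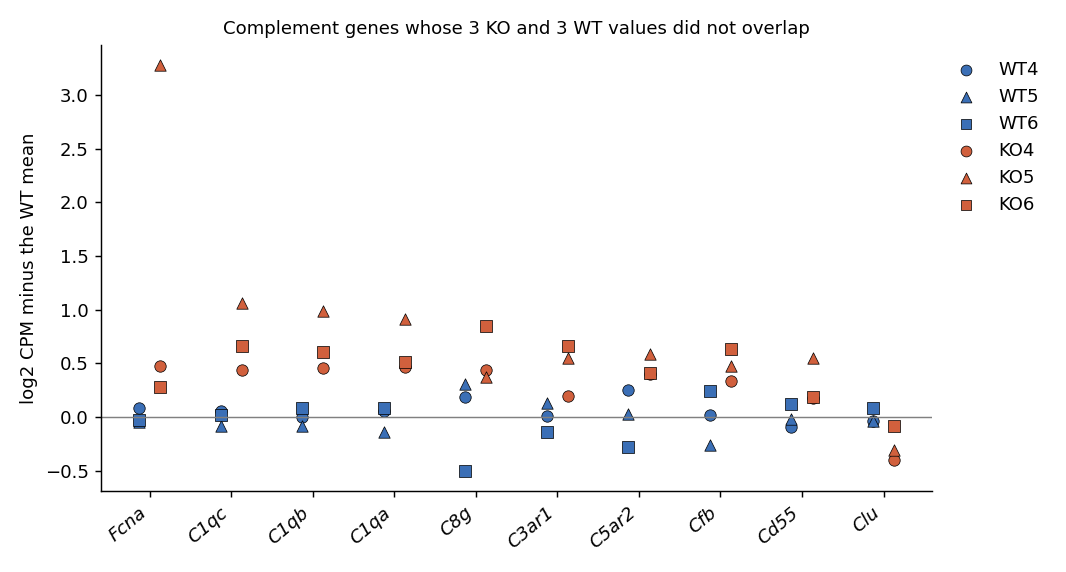
Log2 CPM of each mouse minus the WT mean for the 10 complement genes whose KO and WT values did not overlap. KO5 lies far above the other mice in Fcna and is highest for the C1q chains, and Clu is the only gene with the KO mice below the WT mice.

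A wider list of 35 other complement symbols gave 36 genes in the matrix, of which 19 could be tested, and 9 lay at or under 3 counts in every mouse. Its median log2 fold change was -0.05. Higher in KO mice were 3 genes, the integrin chains of the complement receptors CR3 and CR4, and none was called lower (at an unadjusted p under 0.05, 5 were higher and 3 lower). Itgam, the alpha chain of CR3 on myeloid cells, was at 8.98, 5.75 and 7.15 CPM in WT mice and 13.9, 17.4 and 16.6 CPM in KO mice, with a log2 fold change of 1.13 (SE 0.174) with an edgeR adjusted p-value of 0.0211. Itgb2, the beta chain shared by leukocyte integrins, was at 114, 81.0 and 86.3 CPM in WT mice and 138, 159 and 169 CPM in KO mice, with a log2 fold change of 0.73 (SE 0.137) with an edgeR adjusted p-value of 0.0312. Itgax, the alpha chain of CR4 and a marker of alveolar macrophages and dendritic cells, was at 72.7, 56.4 and 50.0 CPM in WT mice and 88.3, 85.7 and 96.7 CPM in KO mice, with a log2 fold change of 0.60 (SE 0.132) with an edgeR adjusted p-value of 0.0452. KO5 was not set apart in these integrin genes. Without it Itgam (adjusted p = 0.0294) and Itgb2 (0.0490) were still called, and Itgax was not (0.0593). Of the genes not called, Cr2, complement receptor 2 of B cells and also on the B cell marker list, had the largest log2 fold change, 1.77 (edgeR adjusted p-value 0.104, 0.0236 in edgeR's exact test and 0.0831 in DESeq2). KO5 was at 46.5 CPM, KO4 at 9.34 CPM and KO6 at 17.7 CPM, against 5.27 to 8.77 CPM in WT mice, and the log2 fold change was 0.88 without KO5. Csmd1, a membrane protein with complement control domains, had a log2 fold change of 1.55 (edgeR adjusted p-value 0.0596, 0.00700 in the exact test and 0.0117 in DESeq2) and one of 1.18 without KO5. Calr went the other way, with every KO value (478, 452 and 496 CPM) below every WT value (572, 547 and 613 CPM). Its log2 fold change was -0.28 (edgeR adjusted p-value 0.0533, 0.0261 in the exact test and 0.00120 in DESeq2). Hc, which encodes C5, had a log2 fold change of -0.12, and Cfd, factor D, one of -0.82 with an edgeR adjusted p-value of 0.160.

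C1q is a product of macrophages, so marker lists of the cells that lung tissue holds were set beside it. For each mouse the mean log2 CPM of a list was taken relative to the WT mean. The C1q chains stood at 0.46 in KO4, 0.99 in KO5 and 0.59 in KO6. Markers of interstitial and other tissue macrophages stood at 0.23, 0.44 and 0.39, with 4 of 14 called higher (Cd68, Csf1r, Ms4a7 and F13a1), none called lower and a median log2 fold change of 0.49. Their summed level was 1154 to 1223 CPM in WT mice and 1255 to 1329 CPM in KO mice, and none of the list was at 0. The list was not uniform. Cd68, a lysosomal protein of macrophages, had a log2 fold change of 0.79, whereas Cd163, Mrc1 and Mertk, which mark resident macrophages, had 0.06, 0.18 and -0.17. Markers of alveolar macrophages overlapped between the groups, at 1099 to 1406 CPM in WT mice and 1174 to 1395 CPM in KO mice, with 1 of 11 called, the scavenger receptor Marco (log2 fold change 1.26).

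Among monocyte markers the calls were most frequent of these lists, with 11 of 14 called higher and a median log2 fold change of 1.15. Their summed levels were 1834 to 1871 CPM in WT mice and 2032 to 2359.7 CPM in KO mice. Most of each sum was Ace, at 1430 to 1477 CPM in WT mice and 1354 to 1640.2 CPM in KO mice. Its log2 fold change was 0.01, so the sums say little about the other markers of the list. Relative to the WT mean, the monocyte markers stood at 1.06 in KO4, 0.82 in KO5 and 1.44 in KO6. Among the KO mice, KO5 was lowest for monocyte markers, and also for neutrophil markers (0.57 in KO4, 0.33 in KO5 and 0.87 in KO6). B cell markers stood at 0.79, 2.87 and 1.12 in KO4, KO5 and KO6 with a median log2 fold change of 1.91 (0.95 without KO5), and T cell markers at 0.15, 1.53 and 0.69 with a median of 0.91 (0.52 without KO5). With KO4 lowest and KO5 highest, the KO mice stood in the same order for the C1q chains and for B cell, T cell and tissue macrophage markers. Dendritic cell markers had this order too (0.05 in KO4, 0.50 in KO5 and 0.41 in KO6). What this order of 3 mice reflects was not tested. By edgeR, 0 of 10 B cell and 0 of 10 T cell markers were called (10 and 8 were higher at an unadjusted p under 0.05). Without KO5, 8 of the 10 B cell markers and 0 of the 10 T cell markers were called higher. Of neutrophil markers 3 of 10 were called higher (median 0.76), and of dendritic cell markers 2 of 9 were called higher and 1 lower (median 0.51), with 0 called higher without KO5.

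Markers of structural cells and of red blood cells were not called higher. Red blood cell markers fell in KO mice, with 5 of 7 called lower, a median log2 fold change of -0.89, and summed levels of 2132 to 2281 CPM in WT mice and 1038 to 1414 CPM in KO mice. Of lung epithelium markers 1 of 14 was called lower (median -0.25), and 13 had a log2 fold change below 0. Their mean relative to WT stood at -0.09 in KO4, -0.45 in KO5 and -0.20 in KO6, against -0.02 to 0.03 in WT mice. Of endothelium markers 1 of 10 was called lower (median -0.10). Of fibroblast markers 0 of 12 and of mesothelium markers 0 of 8 were called (medians -0.15 and -0.17). Genes of liver and plasma proteins were scarce, with 5 of 12 tested, 0 called and a summed level of 93.3 to 97.0 CPM in WT mice and 78.9 to 87.3 CPM in KO mice. The part that the number of macrophages, monocytes or lymphocytes plays in the C1q difference was not tested.

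**Figure D5:**
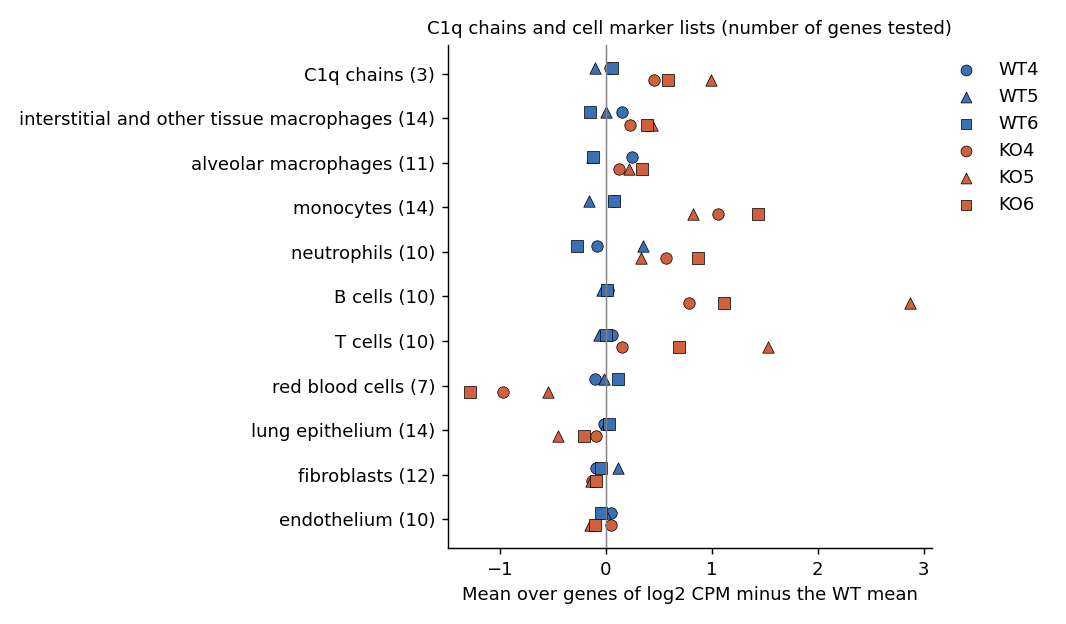
Mean over genes of log2 CPM minus the WT mean for the C1q chains and for cell marker lists, 1 point per mouse, with the number of genes tested in parentheses. KO mice lie above WT mice for the C1q chains (0.46 to 0.99), tissue macrophages (0.23 to 0.44), monocytes, B cells and T cells. They lie below the WT mice for red blood cells and, by less, for lung epithelium (-0.45 to -0.09).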

How the data were processed

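RNA of 6 lungs (3 WT and 3 KO mice, grouped by the genotype in the labels) was extracted with Trizol and RNAeasy and made into stranded TruSeq mRNA libraries. Per the labels and the methods of the study, the authors trimmed reads with Trimmomatic 0.36, aligned them to GRCm38 with STAR 2.5.3a, used Picard 2.9.0 and counted reads per gene with HTSeq 0.6.0. They deposited raw counts for 47069 Ensembl genes with no normalization, and 0 columns were left unused. The annotation release and strand setting of the counting are not given in the sources used here, so overlapping genes and near-identical copies are uncertain. Positions were read from GENCODE M21, which placed 46574 genes and all 30 members.

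KO was tested against WT in R 4.3.3 with edgeR 4.0.16 (glmQLFit, glmQLFTest, TMM, filterByExpr with a minimum count of 10 and a minimum total of 15), without covariates and with Benjamini-Hochberg adjustment over 17037 genes. A call was an adjusted p-value of at most 0.05. CPM used TMM-scaled library sizes, and log2 CPM a prior count of 2. Totals of 19981428 to 46796908 counts put 3 counts at 0.0629 to 0.148 CPM. That floor reflects only counting error. The labels tie each library to its own mouse, so p-values measure the spread between these mice, and an exact permutation test of 3 mice against 3 cannot give a p below 0.1. Alternatives were other size factors, other filters, DESeq2 1.42.0, edgeR's exact test, no immunoglobulin genes, the replicate number as a block, a fold threshold and each mouse left out. Each test was tried on simulated counts and recovered the folds put in, while the share of false calls was above the adjusted p threshold for each test and larger for DESeq2 and the exact test than for the quasi-likelihood test.

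Members and lists were chosen with earlier results of these data known. Every mouse's value is given for members that were called, for members whose groups did not overlap and for C3. Other members are given by range or by mean and SD. Of the wider list, called genes and Hc, Cfd, Itgam and Itgb2 are named, and 1 further gene is not reported here. The single KO values of Cfp, the macrophage markers with no call, Cr2, Csmd1, Calr and the marker lists without KO5 were chosen for the text after their values were seen. So were C3, Cd55 and Cd46 without KO5 and the order of the KO mice in the marker lists. Python 3.11.15, pandas 2.3.3 and Matplotlib 3.10.9 made the summaries and figures.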

Additional observations from a re-analysis of the deposited data

How the results depend on the processing

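The C1q chains were called, as the only members called higher, under DESeq2 size factors, upper-quartile factors, both other filters, DESeq2, edgeR's exact test and without immunoglobulin genes, and 0 members passed with the fold threshold added. With 1 mouse left out the number of members called higher lay between 0 and 4, at 0 without WT4, WT5, WT6 or KO6 and at 4 without KO4. No member was called lower under any of these settings. Over all genes 1089 were called, 1913 with DESeq2 and between 1 (without WT5) and 1278 with 1 mouse left out, with 254, 63 and 117 without WT4, WT6 and KO6. Of the wider complement list 3 were called, 6 with no filter, 5 with DESeq2, 6 with the exact test and 0 to 4 with 1 mouse left out. The calls by DESeq2 and by the exact test included Calr, which was lower. The median log2 fold change of the members, 0.25, lay between 0.12 (without KO5) and 0.29 with 1 mouse left out, and was 0.15 without WT5.

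Replicate numbers did not pair the mice. Deviations from the group means correlated at r = -0.032, -0.154 and -0.021 for the same numbers 4, 5 and 6, across genes. For different numbers r lay between -0.229 and 0.261. With the replicate number as a block, 66 genes, 0 members and 0 genes of the wider list were called, and the adjusted p-values of the C1q chains were 0.0879 to 0.104 with log2 fold changes of 0.63 to 0.73.

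Signs turned only for log2 fold changes near 0 or with large errors. C2 lay between -0.32 and 0.08 with 1 mouse left out (0.08 without WT4), C7 was -0.01 without WT5 or WT6 and -0.00 without KO4, and Masp1 lay between -0.90 and 0.06, the latter without KO4. Cd59a was 0.00 with upper-quartile factors, 0.02 with the block, 0.19 without WT6 and 0.09 without KO6, with a lowest value of -0.16. The cause of these changes was not tested. Depth limits Masp2, Fcnb, Vsig4, C8g and Cfi, each with few counts in most mice, and with 3 mice a group the differences of C3, Cfb and C3ar1 did not pass the test with all mice in the fit.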
